A study of Mus musculus with 12 samples.

Results

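The p53 and Mdm2 axis, the direct target of Nutlin-3, was followed at the RNA level through 7 genes of the mouse hippocampus, *Trp53*, *Trp73*, *Mdm2*, *Mdm4*, *Rchy1*, *Usp7* and *Ppm1d*. The genes were chosen by name for their place in this axis, by a rule that uses no measured value, and they are 7 of the 55421 genes counted. All 7 were above the filter on low counts, which 22592 genes passed.

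Male *Fmr1* KO mice, a model of fragile X syndrome, and WT littermates, all of C57B/L6 background, were injected with Nutlin-3 or with vehicle at 2 months of age, and the hippocampus was taken at 6 months. The 4 groups were WT-Veh (wild type, vehicle), WT-Nut3 (wild type, Nutlin-3), KO-Veh (*Fmr1* KO, vehicle) and KO-Nut3 (*Fmr1* KO, Nutlin-3), with 3 mice and 1 library per mouse in each. According to the methods of the study, Nutlin-3 was given at 10 mg/kg in dimethyl sulfoxide in 5 injections on alternate days, so the RNA was sampled 4 months after the last dose and not during exposure. The knockout is of the whole body, and the tissue was analyzed in bulk, where fewer cells of a type and less RNA per cell cannot be told apart. Between 17150820 and 20040482 reads per library were counted on genes, of which 7293 to 9592 fell on the 7 genes.

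p53, the product of *Trp53*, is a transcription factor that halts the cell cycle or triggers cell death after stress. Mdm2 is the ubiquitin ligase that marks p53 for degradation and is itself a p53 target gene, which closes a negative feedback loop, and its relative Mdm4 binds p53 and blocks its activity. Nutlin-3 occupies the p53-binding pocket of Mdm2, so that p53 protein accumulates and its target genes are transcribed. Much of this control acts on proteins, which RNA counts do not show.

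Other genes gave a check of the labels and of the tissue. Levels are given as normalized counts-per-million (CPM). The KO groups had 34.2 ± 2.72 CPM (KO-Veh) and 31.6 ± 3.71 CPM (KO-Nut3) of *Fmr1*, against 77.5 ± 2.11 (WT-Veh) and 75.8 ± 2.26 (WT-Nut3) in wild type (SD, n = 3), so every KO library lay below every WT library while RNA of the gene was still counted. In KO-Veh against WT-Veh *Fmr1* fell by 1.18 on the log2 scale (SE 0.069, adjusted *P* = 1.76e-06, edgeR quasi-likelihood test). Markers of dentate granule neurons summed to between 532 and 775 CPM, and markers of CA pyramidal neurons to between 964 and 1125 CPM in 11 libraries and to 706 CPM in KO-Nut3 RH6. The neurons that define the hippocampus were thus present in each library, with less of their RNA in RH6.

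3 libraries stood apart. The 16 marker genes of the choroid plexus, the ventricular epithelium that secretes cerebrospinal fluid, summed to 4907 CPM in WT-Nut3 RH9, 3674 in KO-Nut3 RH6 and 5242 in KO-Nut3 RH13. The sum was 398 CPM in KO-Nut3 RH8 and between 35.1 and 60.6 CPM in the other 8 libraries, in 4 of which 1 of the 16 genes was at 0. *Ttr*, the transthyretin gene and the most abundant of the list, reached 4215, 3091 and 4520 CPM in these 3 libraries. KO-Nut3 RH6 stood apart on other lists too. Its 8 thalamus markers, of which *Rora* was the most abundant, summed to 302 CPM against 115 to 176 CPM elsewhere. Its 8 Cajal-Retzius cell markers, of which *Reln* was the most abundant, summed to 283 CPM against 153 to 184 CPM. Both lists hold *Calb2*, named for this overlap alone, so these sums are not independent. *Reln* itself was at 96.9 CPM in RH6 against 71.2 to 91.2 CPM elsewhere. *Lhx1*, a gene of the Cajal-Retzius list picked after its values were seen, was at 4.44 CPM in RH6 and at most at 0.673 CPM elsewhere. RH6 also had the lowest sum of both neuronal lists. The 10 markers of meningeal fibroblasts, the connective tissue cells of the brain's covering, summed to 204 CPM in RH6, 279 in RH8, 204 in RH9 and 218 in RH13. They were also raised in WT-Veh RH5, at 210 CPM, and lay between 74.3 and 126 CPM in the other 7 libraries, while *Dcn*, the most abundant gene of the list, was lowest in RH6 at 20.4 CPM. None of the genes of these 3 lists was at 0 in any library. The part of these tissues in the results below was not tested. All 4 libraries with raised choroid plexus markers were from mice given Nutlin-3. Values without the 3 libraries above 1000 CPM of *Ttr*, which keep RH8 with its meningeal markers, are given below where they moved a result, and KO-Nut3 is then RH8 alone, taken to vary like the other groups.

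The sequence around start sites of the 7 genes was searched for the p53 decamer, the 10-base unit that p53 recognizes. It occurs in pairs in full response elements. RefSeq promoters (GRCm38.p6) from 250 bases before to 50 bases after each start site were searched, and because the decamer reads alike on both strands 1 search covered both. A match was found for *Trp53*, *Mdm2*, *Ppm1d* and *Rchy1*, in 4 of the 10 windows of the 7 genes, while 8.36% of all 32851 windows held one. *Mdm4*, *Trp73* and *Usp7* had no match in these windows. The match of *Rchy1* lies inside the span of the gene given below, before a start site within that span. *Mdm2* and *Ppm1d* are textbook p53 targets, but whether their matches belong to the elements through which p53 acts on them was not examined. Introns and other sequence more than 50 bases after a start site were not searched. The matches are shown with the decamer in capitals, 5′ to 3′ on the strand of the gene. Those of *Cdkn1a*, the cell cycle inhibitor gene most used to read p53 activity, are shown beside them.
Trp53 (chr11:69580274-69580303, plus strand): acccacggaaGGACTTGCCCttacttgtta
Mdm2 (chr10:117710925-117710954, minus strand): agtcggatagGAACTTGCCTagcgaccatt
Ppm1d (chr11:85311112-85311141, plus strand): gggcgggggcGAGCTTGCTCttcttgactc
Rchy1 (chr5:91962627-91962656, minus strand): cactatgacaGAGCTTGTCTcctcaaggtg
Cdkn1a (chr17:29090896-29090925, plus strand): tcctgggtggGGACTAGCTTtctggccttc
Cdkn1a (chr17:29090918-29090947, plus strand): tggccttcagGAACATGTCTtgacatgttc
A match of letters does not show that p53 binds there, and no binding was measured in these mice.

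The 7 genes were ranked by counts divided by the length of their exons. *Usp7* was the most abundant, with 23.6 ± 0.604 CPM per kilobase (SD over 12 libraries), followed by *Mdm2* with 11.6 ± 0.864 and *Mdm4* with 9.38 ± 0.373. *Rchy1* had 8.36 ± 0.678, *Trp53* 6.21 ± 0.326, *Ppm1d* 5.25 ± 0.450 and *Trp73* 0.914 ± 0.388 CPM per kilobase. The ranges of neighbours in this order did not overlap, except for *Mdm4* and *Rchy1*, where *Mdm4* was higher in 11 of 12 libraries, and for *Trp53* and *Ppm1d*, where *Trp53* was higher in 12 of 12. Reads on 18.0% of the exon bases of *Rchy1*, shared with *Thap6* on the opposite strand, were left out of its count. Crediting all of them to *Rchy1* raised its count 1.21 to 1.34 times, an upper limit because reads of *Thap6* can be among them. The place of *Rchy1* below *Mdm4* is thus not settled. Without division by length *Mdm4* (138.8 CPM) stood above *Mdm2* (58.9 CPM), since the annotated exons of *Mdm4* span 14798 bases and those of *Mdm2* 5083 bases.

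**Figure D1:**
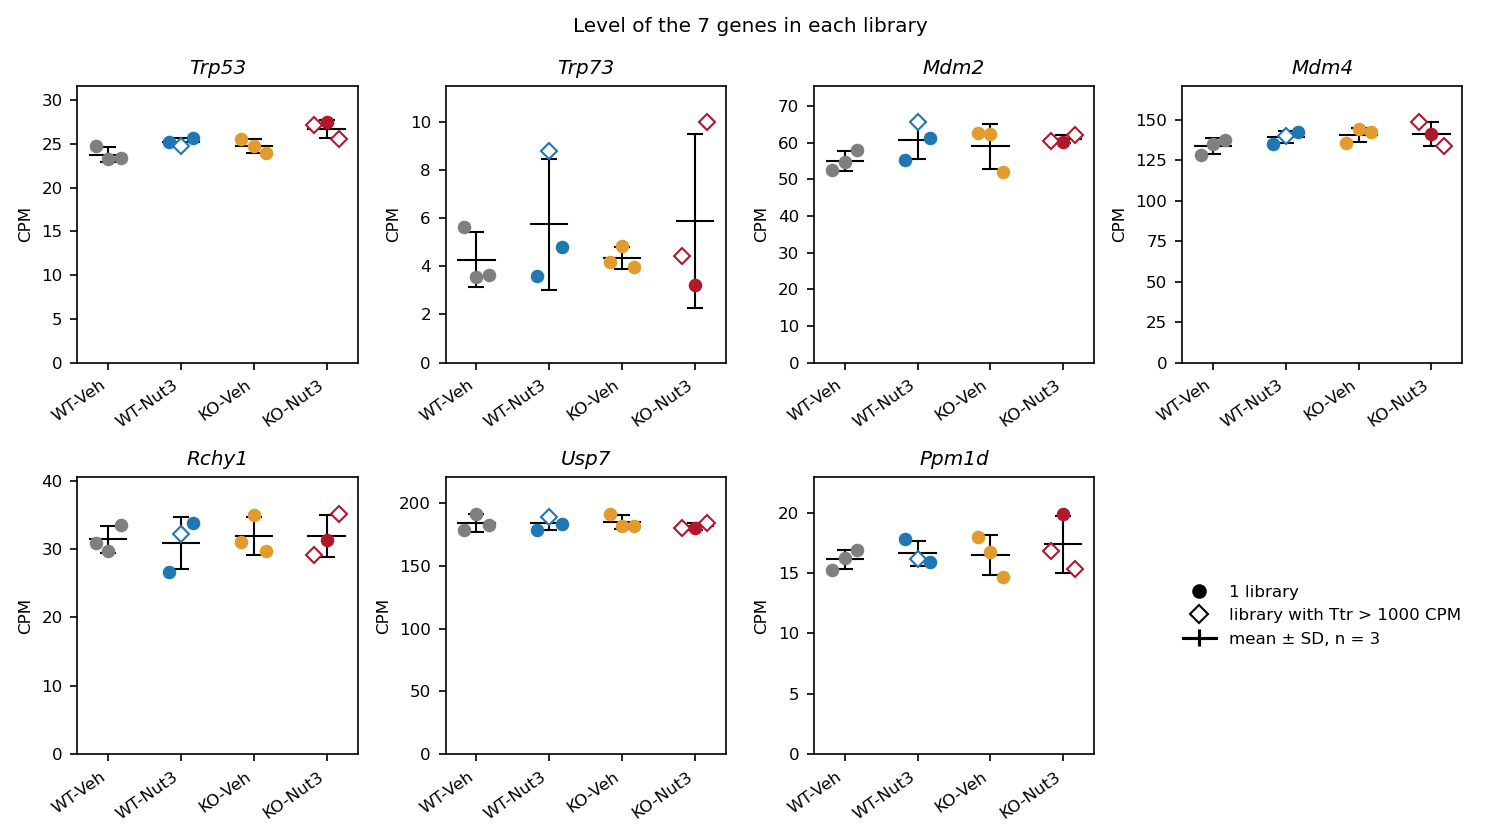
Level (CPM, axis from 0) of each of the 7 genes in every library, by group, with open diamonds for the 3 libraries above 1000 CPM of Ttr and black lines for the group mean ± SD (n = 3). The groups lie at like heights for 6 genes, and Trp73 reaches 8.79 and 9.99 CPM in WT-Nut3 RH9 and KO-Nut3 RH13.

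*Trp53* (ENSMUSG00000059552, chr11:69580359-69591873) was counted at 415 to 499 reads per library. In WT-Veh it was at 24.78, 23.2 and 23.3 CPM in mice RH2, RH5 and RH15, and in WT-Nut3 at 25.2, 24.79 and 25.7 CPM in RH1, RH9 and RH14. In KO-Veh it was at 25.6, 24.8 and 23.9 CPM in RH7, RH10 and RH16, and in KO-Nut3 at 27.2, 27.5 and 25.5 CPM in RH6, RH8 and RH13. The WT groups just failed to overlap, by the margin between 24.79 and 24.78 CPM, and the KO groups overlapped by as little, between 25.55 CPM in RH7 and 25.54 CPM in RH13. Over both genotypes *Trp53* was 7.03% higher after Nutlin-3 (log2 fold change 0.10, 95% interval -0.0033 to 0.20), with an unadjusted *P* of 0.0569 and an adjusted *P* of 0.698. The libraries high in *Ttr* moved this value little, to 0.12 (adjusted *P* = 1) without them.

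*Trp73* (ENSMUSG00000029026, chr4:154056253-154140208) encodes p73, a p53 relative that is needed for multiciliated ependyma and is made by Cajal-Retzius cells. It was the scarcest of the 7 genes, with 56 to 182 reads per library. In WT-Veh it was at 5.61, 3.57 and 3.66 CPM (RH2, RH5, RH15) and in KO-Veh at 4.18, 4.85 and 3.99 CPM (RH7, RH10, RH16). In WT-Nut3 it was at 3.60, 8.79 and 4.82 CPM (RH1, RH9, RH14) and in KO-Nut3 at 4.44, 3.21 and 9.99 CPM (RH6, RH8, RH13). A single library was thus high in each Nutlin-3 group, and the other 10 libraries lay between 3.21 and 5.61 CPM. The fold change over both genotypes was 0.44 on the log2 scale with an interval from -0.12 to 0.99 (adjusted *P* = 0.80001), so a change of up to 1.99-fold lay within the interval. Without the libraries above 1000 CPM of *Ttr* the value was -0.17, and once the choroid plexus score was added to the model it was -0.36, neither past the threshold (adjusted *P* = 1 in each case). It rose to 0.57 without KO-Nut3 RH8, also short of the threshold (adjusted *P* = 0.600).

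The high libraries RH9 and RH13 were those with the most *Ttr*, while RH6, with 3091 CPM of *Ttr*, had *Trp73* at 4.44 CPM. The 9 measured ependymal markers of 10 summed to 49.5 CPM in RH9, 60.9 in RH13 and 57.5 in RH6, and also to 50.1 CPM in KO-Veh RH16, where *Trp73* was at 3.99 CPM. *Foxj1*, the ciliogenesis regulator and most abundant gene of that list, was at 23.7, 24.8, 26.8 and 20.7 CPM in these 4 libraries. RH6 had the highest sum of the Cajal-Retzius list, which shares *Calb2* with the thalamus list, without a raised *Trp73*. Whether *Trp73* and these markers come from the same tissue was not tested.

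**Figure D2:**
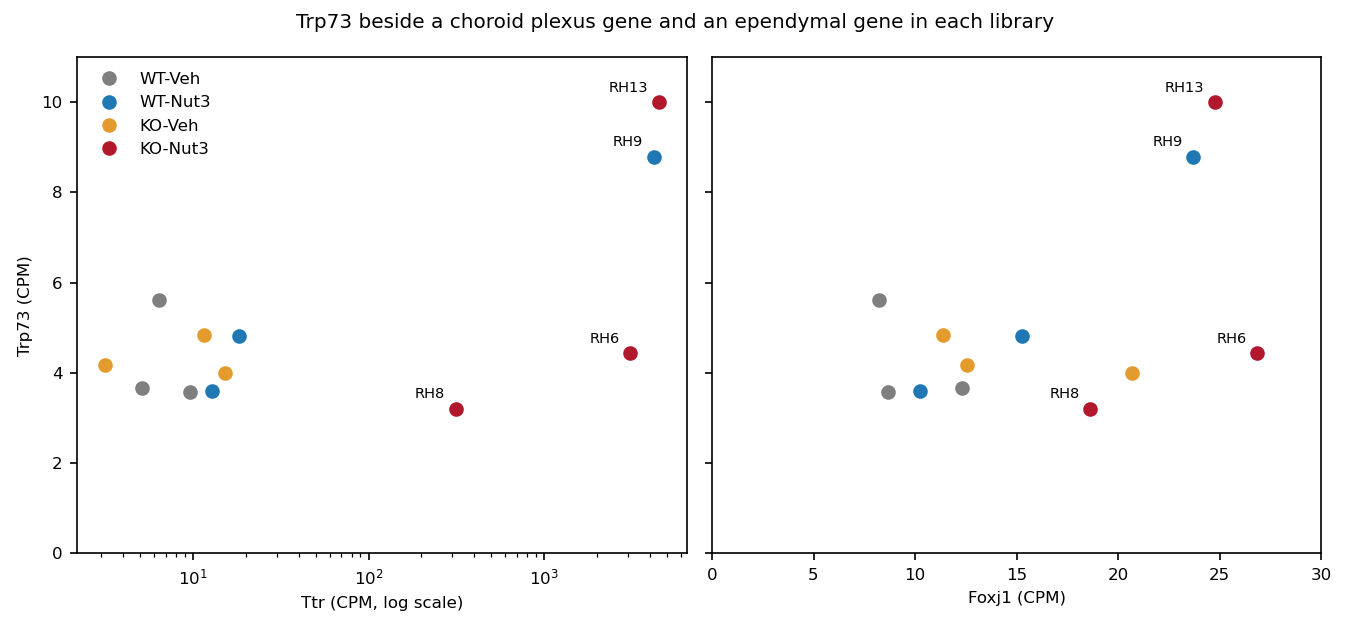
Trp73 (CPM) against Ttr (CPM, log axis, left) and against Foxj1 (CPM, right), 1 point per library, coloured by group, with KO-Nut3 RH6, RH8 and RH13 and WT-Nut3 RH9 named. RH9 and RH13 are high on all 3 genes, and RH6 is high in Ttr and Foxj1 with Trp73 at 4.44 CPM.

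*Mdm2* (ENSMUSG00000020184, chr10:117688875-117710758) was counted at 878 to 1321 reads per library. It was at 52.4, 54.7 and 57.9 CPM in WT-Veh (RH2, RH5, RH15) and at 55.2, 65.6 and 61.2 CPM in WT-Nut3 (RH1, RH9, RH14). It was at 62.6, 62.3 and 52.0 CPM in KO-Veh (RH7, RH10, RH16) and at 60.4, 60.3 and 62.2 CPM in KO-Nut3 (RH6, RH8, RH13). The groups overlapped within each genotype and within each treatment, while every KO-Nut3 library lay above every WT-Veh library, which differ in both. *Trp53* separated this pair of groups too. The pair was not fitted, and the share of all genes that separate it was not counted, so nothing is read from it. KO-Veh held both the lowest *Mdm2* of the 12 libraries, in RH16, and the highest after WT-Nut3 RH9, in RH7. In WT-Nut3 against WT-Veh *Mdm2* differed by 0.14 (interval -0.020 to 0.31, adjusted *P* = 0.998), and in KO-Nut3 against KO-Veh by 0.04 (interval -0.14 to 0.22, adjusted *P* = 0.925). The latter turned to -0.036 without KO-Veh RH16. In KO-Veh against WT-Veh the difference was 0.10 (interval -0.065 to 0.26, adjusted *P* = 0.815), and it was 0.19 (adjusted *P* = 0.671) without RH16. The upper ends of these intervals were rises of 23.7%, 16.8% and 20.1%, so a rise of *Mdm2* RNA by more than these values lay outside them.

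*Mdm4* (ENSMUSG00000054387, chr1:132959484-133030561) varied less, with a lowest value of 128.2 CPM in WT-Veh RH2 and a highest of 148.7 CPM in KO-Nut3 RH6. Its mean was 141.4 ± 7.40 CPM in KO-Nut3 and 140.9 ± 4.30 in KO-Veh, and 139.3 ± 3.76 CPM in WT-Nut3 and 133.7 ± 4.93 in WT-Veh (SD, n = 3). In KO-Nut3 against KO-Veh its log2 fold change was 0.0021 (interval -0.14 to 0.14, adjusted *P* = 0.9997). RH6, with the highest *Mdm4*, is the library with the raised thalamus markers, and without it the log2 fold change was -0.034. The ratio of *Mdm4* to *Mdm2* per length was 0.797 ± 0.053 in KO-Nut3, 0.827 ± 0.101 in KO-Veh, 0.792 ± 0.056 in WT-Nut3 and 0.835 ± 0.017 in WT-Veh. The ratio of *Mdm2* to *Trp53* per length ranged from 1.68 to 2.11 over the 12 libraries, with group means from 1.82 to 1.92. The ratio of *Usp7* to *Mdm2* per length was 1.95 ± 0.0075 in KO-Nut3, 2.07 ± 0.200 in KO-Veh, 1.99 ± 0.120 in WT-Nut3 and 2.19 ± 0.119 in WT-Veh. For this ratio every WT-Veh library lay above every KO-Nut3 library, groups that differ in both genotype and treatment, and WT-Veh overlapped with the other 2 groups. This difference was not tested, and how often other ratios or genes separate these groups was not counted.

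*Rchy1* (ENSMUSG00000029397, chr5:91948904-91963068) encodes Pirh2, another p53-induced ubiquitin ligase that acts on p53. It ranged from 26.6 CPM in WT-Nut3 RH1 to 35.2 CPM in KO-Nut3 RH13, and its means lay between 30.9 and 31.9 CPM in the 4 groups. The reads were counted without regard to strand, and 680 exon bases of *Rchy1* (18.0%) are shared with *Thap6* on the opposite strand, so reads there were left out as ambiguous. Crediting all of them to *Rchy1* raised its counts by 115 to 178 reads per library, or 1.21 to 1.34 times. The same reads were credited to *Thap6* as well, so these are upper limits. No comparison of *Rchy1* passed the threshold with either count. *Trp73* shares 280 exon bases (5.06%) with its antisense gene *Trp73os*, and its counts changed by at most 1.08 times.

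*Usp7* (ENSMUSG00000022710, chr16:8689595-8792308), the deubiquitinase that spares Mdm2, Mdm4 and p53 from degradation, was the steadiest gene of the set. In wild type it was at 178.3, 191.6 and 182.5 CPM with vehicle (RH2, RH5, RH15) and at 178.8, 189.1 and 183.6 CPM with Nutlin-3 (RH1, RH9, RH14). In the KO it was at 191.5, 181.7 and 182.1 CPM with vehicle (RH7, RH10, RH16) and at 179.9, 180.1 and 184.4 CPM with Nutlin-3 (RH6, RH8, RH13), so all groups overlapped. Its coefficient of variation over the 12 libraries was 2.55%, of which counting alone gives 1.72%, and 0.319% of the 22592 genes had a smaller one. Over both genotypes the fold change after Nutlin-3 was -0.015 (interval -0.086 to 0.055, adjusted *P* = 0.956), the narrowest interval of the 7 genes.

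*Ppm1d* (ENSMUSG00000020525, chr11:85311244-85347066) encodes Wip1, a p53-induced phosphatase that switches the p53 response off. It ranged from 14.7 CPM in KO-Veh RH16 to 19.9 CPM in KO-Nut3 RH8, and its group means lay between 16.1 ± 0.807 CPM in WT-Veh and 17.4 ± 2.35 CPM in KO-Nut3 (SD, n = 3). In KO-Nut3 against KO-Veh it differed by 0.072 (interval -0.21 to 0.36, adjusted *P* = 0.921). The sign of this value rested on single libraries, as it was -0.041 without KO-Nut3 RH8 and ranged up to 0.16 with another library left out. Without the libraries high in *Ttr* the difference was 0.28 (adjusted *P* = 0.999). RH8, the KO-Nut3 library that is left, had the highest *Ppm1d* of the 12. Against WT-Nut3 the same step moved it from 0.06 to 0.24 (adjusted *P* = 0.932), and over both genotypes Nutlin-3 against vehicle moved from 0.06 to 0.15 (adjusted *P* = 1). In KO-Nut3 against KO-Veh the values without these libraries were 0.03 for *Mdm2*, 0.0090 for *Mdm4*, -0.035 for *Usp7* and -0.025 for *Rchy1*, none past the threshold.

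The spread between mice was small for the set apart from *Trp73*. The coefficient of variation was 3.97% for *Mdm4*, 5.25% for *Trp53*, 7.45% for *Mdm2*, 8.12% for *Rchy1* and 8.57% for *Ppm1d*, against a median of 16.7% over all genes tested. *Trp73* reached 42.5%, where counting gives 10.9%, and 17.7% without RH9 and RH13. For *Trp53* counting alone gives 4.65%, so most of its spread is of the size that the number of reads allows.

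**Figure D3:**
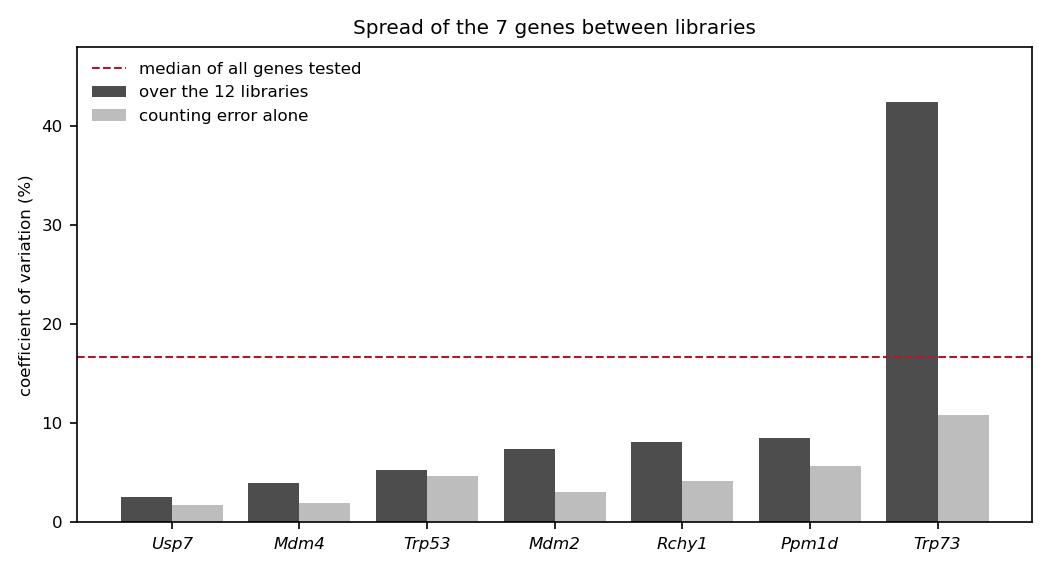
Coefficient of variation (percent) of CPM over the 12 libraries for each of the 7 genes (dark bars), beside the value from counting error alone (light bars) and the median of the 22592 genes tested (dashed line). 6 genes lie between 2.55% and 8.57%, and Trp73 is at 42.5%.

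The comparison of KO-Nut3 against KO-Veh asked what Nutlin-3 given in youth had left behind in the *Fmr1* KO hippocampus. None of the 7 genes passed the threshold of 0.05 on the adjusted *P*-value of edgeR, where 0.199% of all genes tested did (45 of 22592), and none passed in DESeq2 or limma-voom. None had an unadjusted *P* under 0.05, beside 7.60% of all genes, and 5 of the 7 were above 0, beside 50.8%. The smallest adjusted *P* of the 7 was 0.789. No gene of the 7 had groups that did not overlap, against 13.3% of all genes. Their median log2 fold change was 0.04, beside 0.0034 over all genes, and 6 of the 7 intervals lay inside a 1.5-fold change in either direction, the exception being *Trp73* (0.44, interval -0.37 to 1.24). Without the libraries high in *Ttr* the value of *Trp73* was -0.43, and without KO-Nut3 RH8 it was 0.73 (adjusted *P* = 0.486).

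In WT-Nut3 against WT-Veh the count was again 0 of 7, beside 0.00% of all genes by adjusted *P* (0 of 22592 in edgeR, with 717 or 3.17% at an unadjusted *P* under 0.05, and 0 in DESeq2 and limma-voom). None of the 7 had an unadjusted *P* under 0.05, and 6 were above 0, beside 50.1% of all genes. *Trp53* was the only one of the 7 whose groups did not overlap, beside 7.52% of all genes, or 3.60% with WT-Nut3 the higher group. The median fold change was 0.06, and the intervals lay inside a 1.5-fold change for all but *Trp73* (0.43, interval -0.25 to 1.12). Without RH9, the WT library high in *Ttr*, *Trp73* was at -0.016 (adjusted *P* = 1) and *Mdm2* at 0.08 (adjusted *P* = 1) in place of 0.14. Without WT-Nut3 RH1 both were larger, *Trp73* at 0.68 (adjusted *P* = 0.953) and *Mdm2* at 0.21 (adjusted *P* = 0.861).

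Over both genotypes, with 6 libraries against 6, none of the 7 genes was called after Nutlin-3, beside 0.00% of all genes in edgeR, where 1647 genes (7.29%, none of the 7) had an unadjusted *P* under 0.05. DESeq2 called 79 genes and limma-voom 0, none of the 7 among them, and 5 of the 7 were above 0, beside 49.9% of all genes. None of the 7 had separate groups, beside 0.243% of all genes. The response did not differ detectably between genotypes for any of them, as none passed in the interaction of genotype and treatment of edgeR (0.00% of all genes). There 942 genes (4.17%, none of the 7) had an unadjusted *P* under 0.05, DESeq2 called 1 gene and limma-voom 0, and 4 of the 7 were above 0, beside 51.3% of all genes. The interaction was -0.09 for *Mdm2* (interval -0.34 to 0.15) and 0.025 for *Trp53* (interval -0.19 to 0.24).

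KO-Veh against WT-Veh asked whether the loss of *Fmr1* alone had changed the axis. None of the 7 genes passed, beside 0.0177% of all genes (4 of 22592), the smallest adjusted *P* being 0.805. None had an unadjusted *P* under 0.05, beside 7.20%, or groups that did not overlap, beside 12.4%. All 7 fold changes were above 0, as were 48.9% of all genes, but the largest, that of *Mdm2*, was 0.10, and the 7 share the same 6 libraries. All 7 intervals lay inside a 1.5-fold change. In KO-Nut3 against WT-Nut3 none of the 7 passed (0.00443% of all genes), had an unadjusted *P* under 0.05 (4.87%) or had separate groups (10.7%), and 6 were above 0 (51.1%). *Trp73* was at 0.03 there, with an interval from -0.97 to 1.02, and at -0.39 (adjusted *P* = 0.978) without the libraries high in *Ttr*. In KO against WT over both treatments none passed (0.00443%), had an unadjusted *P* under 0.05 (8.16%) or had separate groups (0.536%), and 6 were above 0 (51.9%). In the latter *Mdm2* differed by 0.05 (interval -0.066 to 0.17) and *Trp53* by 0.07 (interval -0.030 to 0.17).

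**Figure D4:**
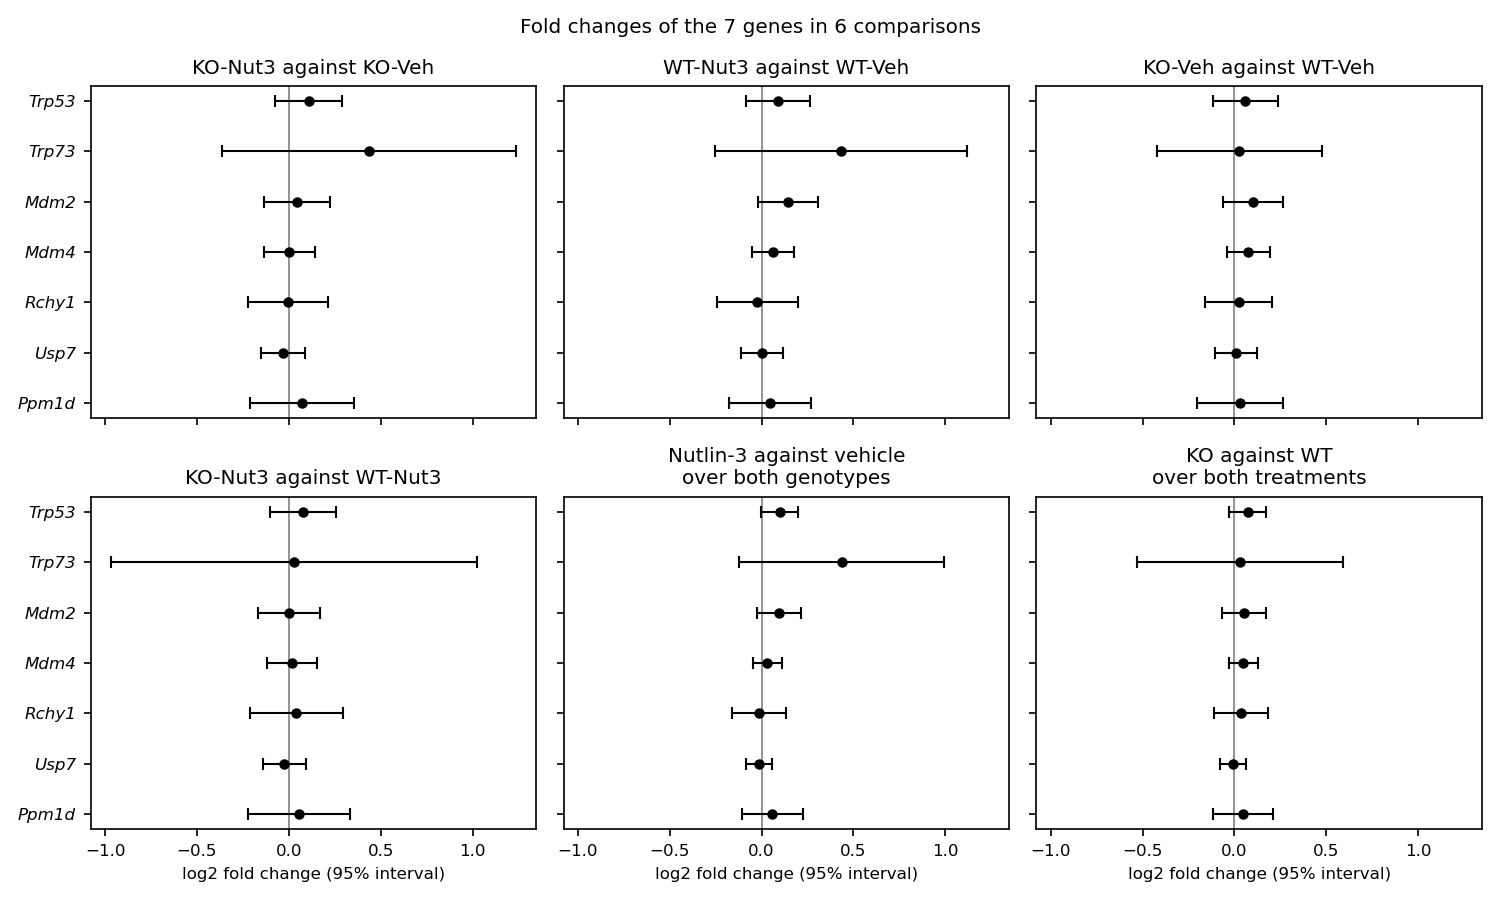
Log2 fold change of the 7 genes with its 95% interval (edgeR) in 6 comparisons, 1 panel each, on a shared axis with a line at 0. Every interval crosses 0, and those of Trp73 are the widest in each panel, up to -0.97 to 1.02 in KO-Nut3 against WT-Nut3.

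Around the core, 126 further genes in 6 lists were followed, all of which were tested. In KO-Nut3 against KO-Veh 1 of the 126 rose and none fell, beside 0.199% of all genes called. The 18 ubiquitin ligases of p53 and their partners had a median log2 fold change of -0.04 with none called, and *Wwp1*, a ligase that binds p53, was at 0.17 (adjusted *P* = 0.680). The 12 deubiquitinases had a median of -0.03 with none called, and *Usp2*, which stabilizes Mdm2, was at 0.18 (adjusted *P* = 0.511). The 21 kinases and phosphatases had a median of -0.05 with none called, and *Csnk1a1*, whose kinase CK1α works with Mdm4, was at -0.17 (adjusted *P* = 0.690). Of the 11 binders that restrain Mdm2 none was called and the median was 0.0075, with *Rps7*, a ribosomal protein gene, at -0.096 (adjusted *P* = 0.738).

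*Cdkn2a*, the gene of the Mdm2 inhibitor Arf and picked after its values were seen, was barely counted, at 0 to 6 reads per library, and no fold is read from it. The 24 p53 family members and cofactors had a median of -0.03 with none called. *Kat2b*, an acetyltransferase of p53, was at 0.44 (adjusted *P* = 0.395) and *Trp63*, another p53 family gene named here after its values were seen, at 0.19 (adjusted *P* = 0.932) with 14 to 45 reads per library.

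Of the 40 p53 target genes *Perp* rose and the other 39 did not pass, with a median of -0.0058. *Perp*, which encodes a membrane protein of desmosomes and epithelia, was at 2.74, 2.03 and 2.45 CPM in KO-Veh (RH7, RH10, RH16) and at 10.2, 5.79 and 9.34 CPM in KO-Nut3 (RH6, RH8, RH13). Its log2 fold change was 1.80 (SE 0.24, interval 1.26 to 2.34, adjusted *P* = 0.0215). It was at 2.75, 4.68 and 3.24 CPM in WT-Veh (RH2, RH5, RH15) and at 3.65, 8.94 and 2.36 CPM in WT-Nut3 (RH1, RH9, RH14). The 4 libraries highest in *Perp* were the 4 with raised choroid plexus markers. In the fit over both genotypes *Perp* differed by 1.14 (adjusted *P* = 0.311), and by -0.021 (adjusted *P* = 0.99995) once the choroid plexus score was added to the model. The call in KO-Nut3 against KO-Veh was lost without the libraries above 1000 CPM of *Ttr* (1.27, adjusted *P* = 0.0834). It was also lost without KO-Veh RH7 (1.91, adjusted *P* = 0.134), RH10 (1.70, 0.261) or RH16 (1.82, 0.145) and without KO-Nut3 RH13 (1.73, 0.0532). The same held in limma-voom (1.77, 0.0855), with the block of mouse numbers, up to RH8 against later ones, as a term (1.80, 0.0603) and with all 12 libraries in the fit (1.81, 0.298). The fold change lay between 1.70 and 1.91 in these 7 fits, but it fell to 1.27 without the libraries high in *Ttr*. The call was kept without KO-Nut3 RH6 (1.65, adjusted *P* = 0.0177), without KO-Nut3 RH8 (2.01, 0.000801) and in DESeq2 (1.80, 5.09e-08).

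*Ephx1*, the microsomal epoxide hydrolase gene, was next at 0.62 (adjusted *P* = 0.142), where DESeq2 called it, and it was highest in RH13 (39.1 CPM) and RH9 (37.2 CPM). *Apaf1*, the core of the apoptosome, came after it and was lower, at -0.25 (interval -0.50 to -0.0092, adjusted *P* = 0.634), with 18.9, 22.1 and 24.9 CPM in KO-Nut3 (RH6, RH8, RH13) below 25.9, 25.3 and 27.2 CPM in KO-Veh (RH7, RH10, RH16). Over the 40 targets the log2 fold changes ran from -0.30 to 1.80, and 18 were above 0, beside 50.8% of all genes. In WT-Nut3 against WT-Veh they ran from -0.60 to 0.65, and 18 were again above 0, beside 50.1%, with none called.

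4 further targets were picked after their values were seen. *Cdkn1a* was at -0.0019 in KO-Nut3 against KO-Veh (interval -0.45 to 0.45) and at -0.011 in WT-Nut3 against WT-Veh (interval -0.64 to 0.62). Single libraries of *Cdkn1a* ran from 4.24 CPM in WT-Veh RH2 to 9.06 CPM in WT-Veh RH15, so the intervals are wide. *Phlda3*, a p53-induced inhibitor of Akt, was at 18.6, 16.8 and 17.2 CPM in WT-Nut3 (RH1, RH9, RH14) and at 11.9, 13.9 and 14.5 CPM in WT-Veh (RH2, RH5, RH15). These groups did not overlap, and the difference of 0.38 (interval 0.14 to 0.63) did not pass after adjustment (adjusted *P* = 0.998). In the KO groups *Phlda3* was at 29.7 CPM in RH6 and between 14.03 and 16.11 CPM in the other 5 libraries, with a difference of 0.31 (interval -0.26 to 0.88, adjusted *P* = 0.802). *Eda2r*, a p53-induced receptor of the tumor necrosis factor receptor family with 4 to 20 reads per library, was at 0.72 in KO-Nut3 against KO-Veh (adjusted *P* = 0.785) and at 0.65 in WT-Nut3 against WT-Veh (adjusted *P* = 0.998), where the groups did not overlap. *Sesn1*, a p53-induced regulator of mTOR signaling, was at -0.15 in KO-Nut3 against KO-Veh (adjusted *P* = 0.687), with every KO-Nut3 library below every KO-Veh library.

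**Figure D5:**
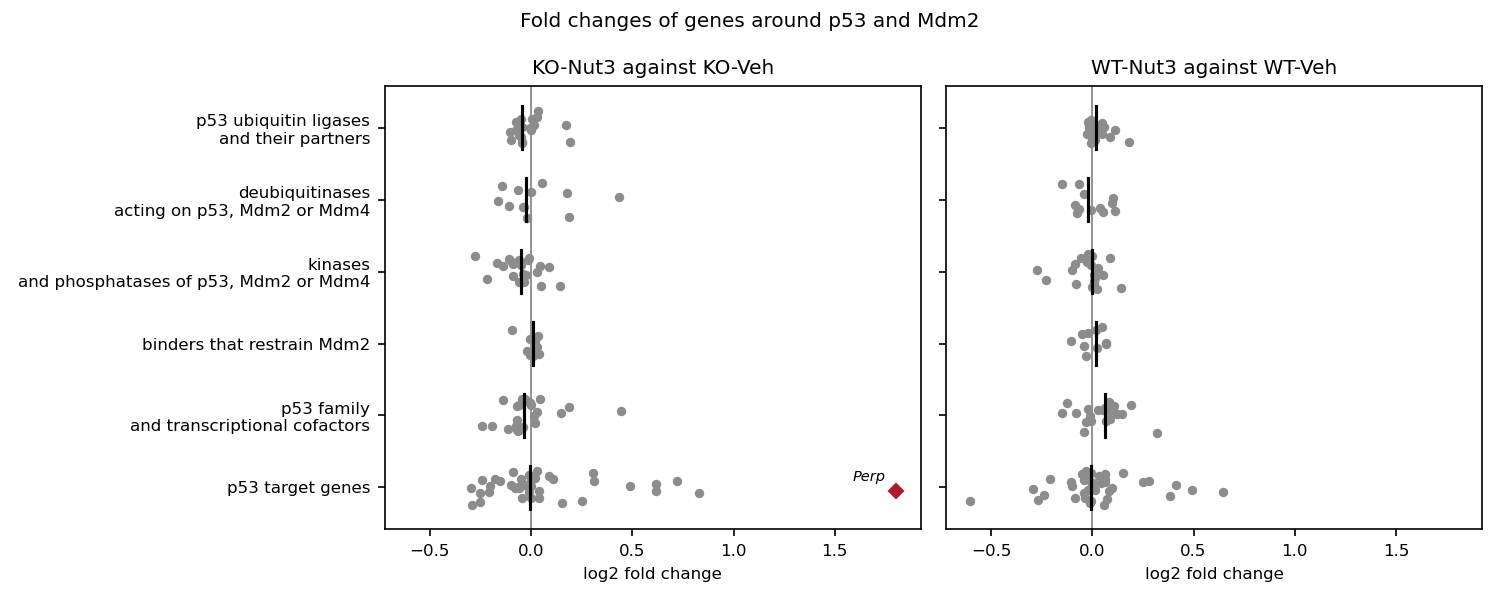
Log2 fold change of the genes of the 6 lists around p53 and Mdm2 in KO-Nut3 against KO-Veh (left) and WT-Nut3 against WT-Veh (right), by list, with black bars for the list medians and a red diamond for a gene past the threshold. Perp, at 1.80 on the left, is the only such gene. Cdkn2a, with at most 6 reads per library, is not drawn.

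In the main fits of the other comparisons none of the 126 genes passed. The smallest adjusted *P* was 0.998 in WT-Nut3 against WT-Veh, 0.608 in KO-Veh against WT-Veh and 0.928 in KO-Nut3 against WT-Nut3. It was 0.311 for Nutlin-3 against vehicle over both genotypes, 0.417 for KO against WT over both treatments and 0.994 for the interaction. At an unadjusted *P* under 0.05 there were 5 of 126 in KO-Nut3 against KO-Veh (3.97%), where 7.60% of all genes had such a *P*, and 5 (3.97%) in KO-Veh against WT-Veh, where 7.20% did. The counts were 3 (2.38%) in WT-Nut3 against WT-Veh beside 3.17% of all genes, and 2 (1.59%) in KO-Nut3 against WT-Nut3 beside 4.87%. In the fits of all 12 libraries they were 10 (7.94%) for Nutlin-3 against vehicle beside 7.29%, 5 (3.97%) for KO against WT beside 8.16%, and 4 (3.17%) for the interaction beside 4.17%. Groups did not overlap for 14 of the 126 (11.1%) in KO-Nut3 against KO-Veh, 7 (5.56%) in WT-Nut3 against WT-Veh, 17 (13.5%) in KO-Veh against WT-Veh and 4 (3.17%) in KO-Nut3 against WT-Nut3, beside 13.3%, 7.52%, 12.4% and 10.7% of all genes. In KO-Veh against WT-Veh *Banp*, a p53-binding nuclear matrix protein gene, was at 0.32 (adjusted *P* = 0.608), *Kmt5a*, a methyltransferase of p53, at 0.23 (adjusted *P* = 0.608) and *Ddit4*, an inhibitor of mTOR signaling, at 0.22 (adjusted *P* = 0.610). *Perp* was at -0.56 there (adjusted *P* = 0.673). The groups failed to overlap only by the margin between 2.736 CPM in KO-Veh RH7 and 2.747 CPM in WT-Veh RH2. Without WT-Veh RH5, which had the highest *Perp* of the WT-Veh libraries and the raised meningeal markers, the value was -0.32 (adjusted *P* = 0.953).

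The 7 genes did not vary as a block. The 21 pairwise Pearson correlations of their log2 CPM over the 12 libraries, given as a description of libraries that share groups, ran from -0.52 for *Trp73* with *Ppm1d* to 0.54 for *Mdm2* with *Rchy1*, and *Trp53* with *Mdm2* gave 0.44. Among 15345 genes with a mean of at least 1 CPM, the genes most like *Trp53* over the 12 libraries were *Abhd11*, *Ino80c* and *Nol7* (r of 0.87, 0.86 and 0.86). Those most like *Mdm2* were *Ostf1*, *Rfwd3* and *Tfdp2* (0.91, 0.90 and 0.88), and those most like *Mdm4* were *Rab31*, *Tmem208* and *Zfp68* (0.92, 0.90 and 0.88). *Trp73* was most like *Car12*, *Lamb1* and *Efcab1* (0.92, 0.92 and 0.91), each highest in RH9 or RH13. *Ppm1d* was most like *Afap1*, *Gtf2f1* and *Tada2b* (0.92, 0.87 and 0.85), *Rchy1* most like *Crk*, *Mrpl28* and *Arf4* (0.90, 0.89 and 0.89), and *Usp7* most like *Zfp40*, *Arhgef1* and *Prep* (0.79, 0.79 and 0.78).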

How the data were processed

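Poly(A) RNA from the hippocampus of 12 mice was sequenced, and the authors mapped the reads to mm10 with STAR and deposited raw read counts per gene, without normalization. Labels and methods differ on whether the reads were single or paired. Groups were taken from the sample labels. The counts made without regard to strand were used, and a merged count table was not used. Gene symbols were matched for 55154 of 55421 identifiers, and positions and exon lengths came from GENCODE M21 (GRCm38).

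Counts were normalized by TMM and tested with the quasi-likelihood test of edgeR 4.0.16 (R 4.3.3), two-sided, for genes with more than 20 counts in total, with Benjamini-Hochberg adjustment over all 22592. Pairs of groups were fitted on their own 6 libraries. Pooled effects of treatment and genotype were fitted additively over all 12, and the interaction in a fit of its own. Intervals are at 95% confidence. The test was also tried on simulated data, and no result given here rests on that trial. CPM used TMM-normalized library sizes, and log2 CPM a prior count of 1. Alternatives used DESeq2 1.42.0, limma-voom (limma 3.58.1), other size factors and filters, added covariates and left-out libraries.

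The rule for the 7 genes uses no measured value, but they and all lists were chosen with earlier results of these data known. Of each list, genes past the threshold, and otherwise up to 3 with the smallest *P*-values in KO-Nut3 against KO-Veh or KO-Veh against WT-Veh, could be named. So could the 3 genes most correlated with each of the 7 and the most abundant gene of each marker list, and any other gene is said to have been picked after its values were seen. Replicates are separate mice by their numbers.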

Additional observations from a re-analysis of the deposited data

Results flagged for a closer look

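Each of the 7 genes was screened for a library far from the rest in the 6 libraries of each genotype and of each treatment, which gave 28 groups, and chance alone would mark about 1 in 20. Among the KO libraries *Mdm2* was at 52.0 CPM in KO-Veh RH16, below the other 5, which lay between 60.3 and 62.6 CPM. Among the same libraries *Trp73* was at 9.99 CPM in KO-Nut3 RH13, above the next highest at 4.85 CPM.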

How the results depend on the processing

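None of the 7 genes passed the threshold in any of 854 values over all alternatives, the smallest adjusted *P* being 0.365. At an unadjusted *P* under 0.05 there were 11 of these values, 5 of *Trp73*, 4 of *Trp53* and 2 of *Mdm2*. The sign changed in 96 of the 854. The largest main value whose sign changed was 0.44, that of *Trp73* in KO-Nut3 against KO-Veh. *Perp* went from 1.14 to -0.021 once the choroid plexus score was added to the model of Nutlin-3 against vehicle over both genotypes. With all genes of at least 1 count *Perp* passed in that comparison (1.14, adjusted *P* = 3.89e-06). With the same filter it also passed in the interaction (1.30, adjusted *P* = 0.00608).

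The number of all genes called was less stable. In KO-Nut3 against KO-Veh it was 45, and 245 in DESeq2, 19 in limma-voom, 544 for all genes with at least 1 count, 20 with number block (mice up to RH8 against the rest) as a term, 0 with all 12 libraries in 1 fit, 131 without the libraries above 1000 CPM of *Ttr* (chosen after seeing the data), and between 6 (without KO-Veh RH7) and 266 (without KO-Nut3 RH8) with 1 library left out. In KO-Veh against WT-Veh it was 4, and 22 in DESeq2, 272 without the filter, 21 with number block, 1 with all libraries and 2 to 11 with 1 left out. In WT-Nut3 against WT-Veh it was 0, and 249 without the filter, 11 with number block and 0 to 1 with 1 left out. In KO-Nut3 against WT-Nut3 it was 1, and 7 in DESeq2, 38 without the filter, 316 without the high *Ttr* libraries and 0 to 7 with 1 left out. Over both genotypes Nutlin-3 gave 0, and 79 in DESeq2, 539 without the filter, 3 with number block and 0 to 19 with 1 left out. KO against WT gave 1, and 43 in DESeq2, 2 in limma-voom, 239 without the filter, 10 with number block, 5 without the high *Ttr* libraries and 1 to 10 with 1 left out. The interaction gave 0, and 1 in DESeq2, 291 without the filter, 1 with the choroid plexus score and 0 to 1 with 1 left out. The cause of these differences was not tested.

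No paired analysis was possible because the mouse numbers are not shared between groups. With 3 mice per group, a change of *Trp73* smaller than its interval could not be detected, and *P*-values do not show that levels were equal. Levels per length rest on all annotated exons.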
